A study of Mus musculus with 10 samples.

Results

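The 69 axon guidance ligands and receptors described here are the protein-coding mouse genes of the semaphorins of classes 3 to 7, the plexins, the neuropilins Nrp1 and Nrp2, the ephrins and their Eph receptors, the Slits and Robo receptors, and the netrins with their receptors Dcc and Unc5. They were chosen by gene symbol among 55536 genes, with earlier results of these data known. Of the 69 genes, 35 are ligands and 34 are receptors, and all 69 passed the filter on low counts. Semaphorins of classes 4 to 7 and ephrins sit in or on the cell membrane and can themselves signal, so the split into ligands and receptors follows their usual naming. The study used translating ribosome affinity purification (TRAP) on the S1DZ, a zone of primary somatosensory cortex in mice, to profile RNA on ribosomes. In TRAP, an antibody against GFP pulls down ribosomes whose L10a protein carries the tag EGFP. Of 10 libraries, 3 were labelled Il-17rb-Cre, 3 Il-17ra-Cre and 4 Il-17rc-Cre, after the interleukin-17 receptor gene that drives Cre recombinase in the mouse line. Mice of all 3 groups received the same virus, AAV5-EF1α-Flex-EGFPL10a, at 400 nl per side and 0.1 µl per minute, and the tissue was taken 4 weeks later. The EF1α promoter is active in many cell types, so among the cells that the virus reached Cre decides which carry the tag. The comparison asks which genes are translated in cells marked by each driver. Every group carries both Cre and the tagged ribosomal protein, and libraries without them were not used here. Neither age nor sex is given in the labels, nor whether each replicate came from its own animal, so p-values measure the spread between these libraries.

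Axon guidance proteins are best known from development, when growth cones read them as attractive or repulsive signals. Secreted class 3 semaphorins act through a neuropilin that binds the ligand and a plexin-A that passes the signal on, while most other semaphorins bind plexins directly. Ephrins on one cell bind Eph receptors, which are tyrosine kinases, on the next, and signals run both ways. Slits repel axons through Robo receptors, and netrin-1 attracts through Dcc and repels through Unc5 receptors. In the adult cortex many of these genes stay active in neurons, where they bear on spines and synapses, and others are made by glia and by vessel cells.

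Libraries held between 39692925 and 165844244 counts, and values are given as CPM, the count of a gene scaled to library size, corrected by the trimmed mean of M values (TMM). The driver genes did not mark their own groups. Il17ra was at 18.0 to 30.7 CPM for Il-17rb-Cre, 16.7 to 21.4 CPM for Il-17ra-Cre and 15.6 to 21.7 CPM for Il-17rc-Cre. Il17rc was at 1.03 to 3.19, 21.3 to 41.2 and 20.3 to 39.9 CPM in those groups. Il17rb was at 0.614 to 0.872 CPM in those labelled Il-17rb-Cre, against 1.27 to 3.75 CPM in those labelled Il-17ra-Cre and 0.0667 to 2.72 CPM in those labelled Il-17rc-Cre. All directions below therefore rest on the labels as deposited, and group names stand for the libraries so labelled. Il-17ra-Cre replicate 3 stood apart from replicates 1 and 2 of its group, with Mbp at 2014 CPM against 21977 and 14207 CPM and Rpl10a at 679 CPM against 58.7 and 70.9 CPM. Rpl10a also differed between groups, at 670, 602 and 665 CPM for Il-17rb-Cre and 267, 191, 266 and 228 CPM for Il-17rc-Cre. Whether these Rpl10a levels bear on the results below was not tested. The markers of excitatory neurons summed to 18635 to 21503 CPM in the libraries labelled Il-17rb-Cre, with all 12 detected in each, against 1661 to 7080 CPM for Il-17ra-Cre and 2410 to 3787 CPM for Il-17rc-Cre. The 12 inhibitory neuron markers summed to 1549 to 1631 CPM for Il-17rb-Cre, 409.9 to 617 CPM for Il-17ra-Cre and 895 to 1312 CPM for Il-17rc-Cre. These 12 were mixed in direction (edgeR, adjusted p under 0.05). In Il-17rb-Cre 8 were higher and 1 lower than in Il-17ra-Cre, beside 16.4% and 24.4% of all genes. Against Il-17rc-Cre 3 were higher and 2 lower, beside 17.7% and 21.9% of all genes. The 12 astrocyte markers summed to 677.0 to 694 CPM for Il-17rb-Cre, against 7539 to 14523 CPM for Il-17ra-Cre and 12671 to 19858 CPM for Il-17rc-Cre. In such bulk pull-downs, fewer cells of a type and less RNA per cell cannot be told apart, and the part of these marker differences in the results below was not tested.

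Guidance genes were called in both directions in the libraries labelled Il-17rb-Cre. Against Il-17ra-Cre, 23 of the 69 genes were higher and 18 lower in the libraries labelled Il-17rb-Cre, with 28 not called (edgeR, adjusted p under 0.05). Of all 20301 genes tested, 40.7% were called in this comparison, 16.4% higher and 24.4% lower, where the members' shares were 33.3% and 26.1%, so the lower share is near that of all genes. The 23 were 11 ligands and 12 receptors, and the 18 were 10 ligands and 8 receptors. The median log2 fold change of the 69 was 0.42, beside -0.09 over all genes tested. Against Il-17rc-Cre, 21 were higher, 11 ligands and 10 receptors, and 13 lower, 7 ligands and 6 receptors. The background there was 39.7% called, 17.7% higher and 21.9% lower, beside 30.4% and 18.8% of the members, again with a lower share near the background. The medians were 0.33 for the guidance genes and 0.02 for all genes. Without Il-17rb-Cre replicate 2 the 21 fell to 12, and the share of all genes called higher was then 10.5%. With Il-17ra-Cre replicates 1 and 2 both left out, the counts against Il-17ra-Cre were 7 higher and 9 lower, beside 6.40% and 11.9% of all genes. Groups did not overlap for 30 genes higher and 22 lower in Il-17rb-Cre against Il-17ra-Cre, beside 24.6% and 29.2% of all genes tested. Against Il-17rc-Cre it was 24 higher and 18 lower, beside 27.5% and 25.5%. Against each other, the libraries labelled Il-17ra-Cre and Il-17rc-Cre differed in 3 of the 69 genes, all higher in Il-17ra-Cre, with 2.18% of all genes called, 1.38% higher and 0.798% lower.

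The comparisons with Il-17ra-Cre and Il-17rc-Cre share the 3 libraries labelled Il-17rb-Cre, so calls in both are not independent. In both, 19 genes were called higher and 13 lower, 27.5% and 18.8% of the members, beside 13.0% and 18.3% of all genes tested. Counting only calls held in both comparisons with each library left out in turn, 10 were higher: the ligands Efna3, Efna5, Ntn5, Sema4f and Sema6b and the receptors Epha4, Epha10, Ephb6, Unc5a and Unc5d. The 7 lower by the same count were the ligands Ntn1, Sema6a and Sema6d and the receptors Epha2, Ephb4, Plxnb1 and Plxnb2. These are 14.5% and 10.1% of the members, and the same count takes in 7.24% and 13.3% of all genes tested, so the share on the lower side was no larger than that of all genes. Neither comparison called 26 of the 69.

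**Figure D1:**
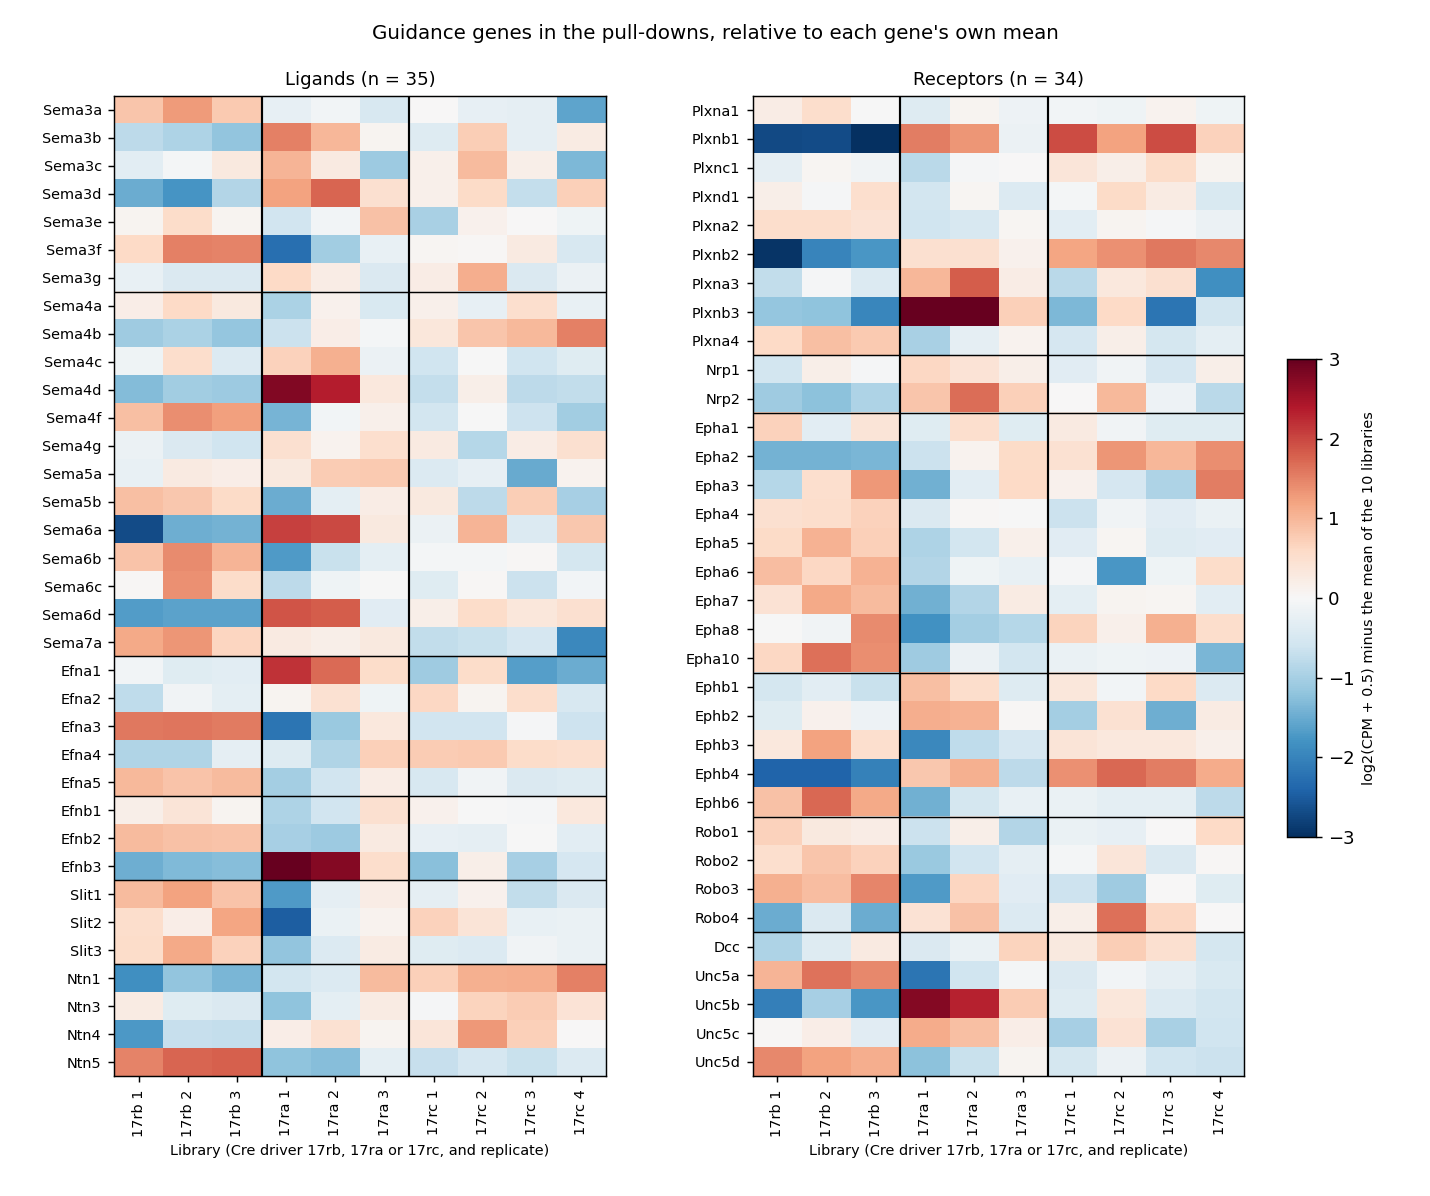
Heat map of log2(CPM + 0.5) for 35 ligands (left) and 34 receptors (right) in 10 libraries (columns, grouped as Il-17rb-Cre, Il-17ra-Cre and Il-17rc-Cre), each gene minus its mean over the 10 libraries and the colours capped at 3 in either direction. Black horizontal lines part the families. The 3 Il-17rb-Cre columns resemble each other, with red for Efna3, Ntn5, Unc5a and Ephb6 and blue for Plxnb1, Plxnb2 and Ephb4, and Il-17ra-Cre replicate 3 is paler than replicates 1 and 2 for Efnb3 and Sema4d.

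To compare levels between genes, CPM was divided by exonic length (RPKM, CPM per kilobase of exon, mean ± SD). Ephb6 stood first of the 34 receptors in each group, at 39.9 ± 12.4 RPKM in the libraries labelled Il-17rb-Cre, 10.3 ± 4.11 RPKM in those labelled Il-17ra-Cre and 12.4 ± 2.13 RPKM in those labelled Il-17rc-Cre. Unc5a came next in the libraries labelled Il-17rb-Cre at 25.0 ± 5.02 RPKM, and its spread touches that of Ephb6 there. Epha4, the third, was at 5.66 ± 0.442 RPKM, below both by more than their spread. Among ligands, Efna3 and Sema6b led in the libraries labelled Il-17rb-Cre at 26.8 ± 0.416 and 23.4 ± 4.68 RPKM, which do not differ beyond the spread of Sema6b. Sema7a followed at 15.8 ± 3.67 RPKM and Ntn5 at 9.37 ± 1.06 RPKM. In the libraries labelled Il-17ra-Cre the first ligands were Efnb3 at 90.0 ± 65.1 RPKM and Sema4d at 18.6 ± 12.1 RPKM, both with a wide spread. In those labelled Il-17rc-Cre they were Efnb3 at 9.99 ± 4.70 RPKM and Sema6b at 9.71 ± 1.57 RPKM, and Plxnb2 was the second receptor at 8.50 ± 0.959 RPKM. At the low end, 20 of the 69 genes averaged under 1 RPKM in each group, Dcc and Robo1 among them.

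Class 3 semaphorins are secreted and repel many axons. Of the 7, 2 were higher and 2 lower in the libraries labelled Il-17rb-Cre than in those labelled Il-17ra-Cre, and against Il-17rc-Cre 1 was higher and 2 lower. Sema3f (chromosome 9, 107681500 to 107710475 in GRCm38, as all positions below), a ligand of Nrp2 that prunes spines of cortical neurons in mice, was at 3.55, 7.01 and 6.93 CPM in the libraries labelled Il-17rb-Cre, 0.0539, 0.796 and 1.79 CPM in those labelled Il-17ra-Cre and 2.26, 2.24, 2.72 and 1.42 CPM in those labelled Il-17rc-Cre. The libraries labelled Il-17rb-Cre lay above all others, and Il-17ra-Cre replicate 1 was lowest with 2 reads. The log2 fold change was 2.69 ± 0.83 against Il-17ra-Cre (edgeR adjusted p = 0.0259) and 1.43 ± 0.73 against Il-17rc-Cre (edgeR adjusted p = 0.144). The first was not called without any 1 of Il-17rb-Cre replicates 2 and 3 and Il-17ra-Cre replicate 2 (edgeR adjusted p between 0.0636 and 0.0772), and without Il-17ra-Cre replicate 3 it was 3.77. Sema3b (chromosome 9, 107597674 to 107609229), which had the highest RPKM of class 3 in the libraries labelled Il-17ra-Cre (2.11 ± 0.999) and ranked below Sema3e in those labelled Il-17rb-Cre (0.478 ± 0.0799 and 1.26 ± 0.264), was at 2.63, 2.35 and 1.87 CPM in the libraries labelled Il-17rb-Cre, 14.7, 10.3 and 5.21 CPM in those labelled Il-17ra-Cre and 3.60, 8.43, 3.95 and 5.86 CPM in those labelled Il-17rc-Cre. Its values in the libraries labelled Il-17rb-Cre lay below all others. The log2 fold changes were -2.14 ± 0.45 and -1.26 ± 0.42 against Il-17ra-Cre and Il-17rc-Cre (edgeR adjusted p = 0.00387 and 0.0355), and the one against Il-17rc-Cre was not called without any 1 of Il-17rb-Cre replicates 1, 2 and 3 and Il-17rc-Cre replicates 2 and 4 (edgeR adjusted p between 0.0649 and 0.105). Sema3a, the founding repellent of the class, was higher in the libraries labelled Il-17rb-Cre, at 9.67, 13.5 and 9.33 CPM against 4.31, 4.96 and 3.64 CPM for Il-17ra-Cre and 5.31, 4.34, 4.23 and 1.42 CPM for Il-17rc-Cre. Its log2 fold changes were 1.33 ± 0.43 and 1.50 ± 0.39 (edgeR adjusted p = 0.03 and 0.0122). It was not called against Il-17ra-Cre without any 1 of Il-17rb-Cre replicates 1, 2 and 3 and Il-17ra-Cre replicates 1, 2 and 3 (edgeR adjusted p between 0.0539 and 0.105), nor against Il-17rc-Cre without Il-17rb-Cre replicate 2 (edgeR adjusted p = 0.0661). Sema3d was lower on few reads, 6, 0 and 30 in Il-17rb-Cre replicates 1 to 3, with -3.11 ± 1.06 against Il-17rc-Cre and -4.27 ± 1.15 against Il-17ra-Cre (edgeR adjusted p = 0.0405 and 0.0136). Neither call held on leaving out single libraries: it was lost against Il-17ra-Cre without Il-17rb-Cre replicate 1 (edgeR adjusted p = 0.0529) and against Il-17rc-Cre without any 1 of Il-17rb-Cre replicate 1, Il-17ra-Cre replicates 1 and 2 and Il-17rc-Cre replicates 1, 2 and 4 (edgeR adjusted p between 0.0512 and 0.122), and without Il-17rb-Cre replicate 3 the values were -6.04 and -4.93. Without Il-17rb-Cre replicate 2 the value against Il-17ra-Cre was -3.68. Sema3c, Sema3e and Sema3g were called in neither comparison.

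Among the 13 membrane-bound semaphorins of classes 4 to 7, 3 were higher and 4 lower in the libraries labelled Il-17rb-Cre than in those labelled Il-17ra-Cre, and 4 higher and 3 lower than in those labelled Il-17rc-Cre. Sema6b (chromosome 17, 56123085 to 56140343), which acts through plexin-A receptors, was at 77.9, 114 and 87.4 CPM in the libraries labelled Il-17rb-Cre, 12.7, 26.6 and 34.4 CPM in those labelled Il-17ra-Cre and 40.7, 40.5, 43.4 and 29.4 CPM in those labelled Il-17rc-Cre. All 3 libraries labelled Il-17rb-Cre lay above the other 7. The log2 fold changes were 1.92 ± 0.33 against Il-17ra-Cre and 1.27 ± 0.30 against Il-17rc-Cre (edgeR adjusted p = 0.00136 and 0.00715). Sema4f, which is found at synapses, was at 39.4, 56.0 and 49.4 CPM for Il-17rb-Cre, 7.68, 19.6 and 23.4 CPM for Il-17ra-Cre and 14.1, 20.7, 13.4 and 9.86 CPM for Il-17rc-Cre, and rose by 1.51 ± 0.39 and 1.74 ± 0.36 on the log2 scale without overlap (edgeR adjusted p = 0.0119 and 0.0038). Sema6c rose by 1.08 ± 0.39 and 1.05 ± 0.36 (edgeR adjusted p = 0.0472 and 0.0383), and was not called against Il-17ra-Cre without any 1 of Il-17rb-Cre replicates 2 and 3, Il-17ra-Cre replicates 1 and 2 and Il-17rc-Cre replicates 1, 2, 3 and 4 (edgeR adjusted p between 0.0519 and 0.214) or against Il-17rc-Cre without any 1 of Il-17rb-Cre replicates 2 and 3, Il-17ra-Cre replicate 2 and Il-17rc-Cre replicates 1, 3 and 4 (edgeR adjusted p between 0.0583 and 0.263). Sema7a (chromosome 9, 57940112 to 57962865), a lipid-anchored ligand of plexin-C1, was at 55.0, 62.4 and 38.7 CPM in the libraries labelled Il-17rb-Cre, 30.1, 28.2 and 30.2 CPM in those labelled Il-17ra-Cre and 14.7, 15.3, 17.2 and 6.15 CPM in those labelled Il-17rc-Cre. The 3 groups did not overlap, with Il-17rb-Cre highest and Il-17rc-Cre lowest. Sema7a passed the test against Il-17rc-Cre, at 1.97 ± 0.31 (edgeR adjusted p = 0.000806), and missed it against Il-17ra-Cre, at 0.82 ± 0.33 (edgeR adjusted p = 0.074).

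Sema6a and Sema6d, which bind plexin-A receptors, and the class 4 members Sema4b and Sema4d lay on the lower side. Sema6a (chromosome 18, 47235598 to 47368870) was at 1.43, 3.98 and 4.10 CPM in the libraries labelled Il-17rb-Cre, 50.5, 48.2 and 14.6 CPM in those labelled Il-17ra-Cre and 10.5, 24.7, 8.82 and 21.3 CPM in those labelled Il-17rc-Cre. Its levels in the libraries labelled Il-17rb-Cre were below all others, with log2 fold changes of -3.57 ± 0.63 against Il-17ra-Cre and -2.36 ± 0.58 against Il-17rc-Cre (edgeR adjusted p = 0.0015 and 0.00884). Sema6d fell by 3.12 ± 0.48 and 2.09 ± 0.44 on the log2 scale (edgeR adjusted p = 0.000692 and 0.00417), at 7.60, 7.98 and 8.08 CPM for Il-17rb-Cre, 95.4, 91.0 and 20.1 CPM for Il-17ra-Cre and 29.0, 37.7, 32.2 and 35.5 CPM for Il-17rc-Cre. Sema4d (chromosome 13, 51685529 to 51793747), the main ligand of plexin-B1, was at 12.8, 15.4 and 14.9 CPM in the libraries labelled Il-17rb-Cre, 222, 167 and 40.3 CPM in those labelled Il-17ra-Cre and 19.4, 36.6, 18.5 and 19.1 CPM in those labelled Il-17rc-Cre. It was far higher in Il-17ra-Cre replicates 1 and 2 than anywhere else, and replicate 3 lay only just above the highest library labelled Il-17rc-Cre. The log2 fold change was -3.32 ± 0.55 against Il-17ra-Cre (edgeR adjusted p = 0.00106) and -0.70 ± 0.48 against Il-17rc-Cre (edgeR adjusted p = 0.268). With Il-17ra-Cre replicates 1 and 2 both left out the first was -1.48 (edgeR adjusted p = 0.0261). Sema4b (chromosome 7, 80186841 to 80226527) was at 1.61, 1.80 and 1.47 CPM in the libraries labelled Il-17rb-Cre, 2.35, 4.54 and 3.75 CPM in those labelled Il-17ra-Cre and 5.10, 7.33, 8.17 and 12.1 CPM in those labelled Il-17rc-Cre. Its 3 groups did not overlap, with log2 fold changes of -2.33 ± 0.37 against Il-17rc-Cre and -1.12 ± 0.37 against Il-17ra-Cre (edgeR adjusted p = 0.000781 and 0.0331). The call against Il-17ra-Cre was lost without any 1 of Il-17rb-Cre replicates 1, 2 and 3 and Il-17ra-Cre replicates 2 and 3 (edgeR adjusted p between 0.0559 and 0.102). Sema4a, Sema4c, Sema4g, Sema5a and Sema5b were called in neither comparison, with log2 fold changes between -1.01 and 1.25.

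Ephrin-A proteins hang on a lipid anchor and bind EphA receptors. Of the 5, 2 were higher and 1 lower in the libraries labelled Il-17rb-Cre than in those labelled Il-17ra-Cre, and against Il-17rc-Cre 2 were higher and 0 lower. Efna3 (chromosome 3, 89313899 to 89322965), which binds Epha4 at spines in the mouse hippocampus, was at 65.1, 66.4 and 64.4 CPM in the libraries labelled Il-17rb-Cre, 4.31, 9.69 and 26.8 CPM in those labelled Il-17ra-Cre and 14.2, 14.2, 20.8 and 13.8 CPM in those labelled Il-17rc-Cre. The 3 libraries labelled Il-17rb-Cre lay close together and above all others. The log2 fold changes were 2.25 ± 0.52 against Il-17ra-Cre and 2.05 ± 0.47 against Il-17rc-Cre (edgeR adjusted p = 0.00662 and 0.00655), the first 3.22 without Il-17ra-Cre replicate 3. Other genes overlap 14.1% of its exonic length, so some of its reads are uncertain. Efna3 made up 67.3 to 69.2% of the summed ephrin-A RPKM in the libraries labelled Il-17rb-Cre, 8.09 to 45.1% in those labelled Il-17ra-Cre and 30.1 to 42.7% in those labelled Il-17rc-Cre. Efna5, which maps sensory axons in mice, was at 25.3, 23.3 and 24.7 CPM for Il-17rb-Cre, 6.01, 8.36 and 14.9 CPM for Il-17ra-Cre and 8.97, 11.7, 9.31 and 9.56 CPM for Il-17rc-Cre. It rose by 1.32 ± 0.30 and 1.31 ± 0.27 on the log2 scale without overlap (edgeR adjusted p = 0.00588 and 0.00406). Efna1, best known from vessels, was lower against Il-17ra-Cre alone at -1.99 ± 0.70 (edgeR adjusted p = 0.0429), and not called without any 1 of Il-17rb-Cre replicates 1, 2 and 3, Il-17ra-Cre replicates 1 and 2 and Il-17rc-Cre replicate 1 (edgeR adjusted p between 0.0533 and 0.136). Efna2 and Efna4 were called in neither comparison.

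The 3 transmembrane ephrin-B ligands split. Efnb3 (chromosome 11, 69554092 to 69560205), the barrier that keeps corticospinal axons from crossing the midline in mice, was at 16.5, 18.0 and 18.9 CPM in the libraries labelled Il-17rb-Cre, 479, 314 and 66.9 CPM in those labelled Il-17ra-Cre and 19.1, 52.6, 23.1 and 32.4 CPM in those labelled Il-17rc-Cre. It was highest in Il-17ra-Cre replicates 1 and 2, and the libraries labelled Il-17rb-Cre lay below all others. The log2 fold change was -4.01 ± 0.65 against Il-17ra-Cre (edgeR adjusted p = 0.000977), -3.40 without Il-17ra-Cre replicate 1 and -1.89 with replicates 1 and 2 both left out, the last still called (edgeR adjusted p = 0.0199). Against Il-17rc-Cre it was -0.84 ± 0.55 (edgeR adjusted p = 0.256). Efnb2, the arterial ligand of Ephb4 that neurons also make, went the other way, at 20.0, 19.2 and 18.7 CPM for Il-17rb-Cre, 4.83, 4.48 and 12.3 CPM for Il-17ra-Cre and 8.56, 8.40, 10.1 and 8.09 CPM for Il-17rc-Cre. Its log2 fold changes were 1.41 ± 0.36 and 1.14 ± 0.33 (edgeR adjusted p = 0.0102 and 0.019), the first 2.05 without Il-17ra-Cre replicate 3. The second was not called without any 1 of Il-17rb-Cre replicates 1, 2 and 3 (edgeR adjusted p between 0.059 and 0.0644). Efnb1 was called in neither comparison.

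The 3 Slits all had positive log2 fold changes in both comparisons, and 2 were called higher in each. Slit3 (chromosome 11, 35121224 to 35708507), the Slit with the highest RPKM in each group, was at 8.73, 13.3 and 9.75 CPM in the libraries labelled Il-17rb-Cre, 2.29, 4.27 and 7.01 CPM in those labelled Il-17ra-Cre and 4.40, 4.23, 5.38 and 5.03 CPM in those labelled Il-17rc-Cre. Those labelled Il-17rb-Cre lay above all others, with 1.22 ± 0.38 against Il-17ra-Cre and 1.15 ± 0.34 against Il-17rc-Cre (edgeR adjusted p = 0.0255 and 0.023). Slit1 was at 1.51 ± 0.50 and 1.42 ± 0.46 (edgeR adjusted p = 0.0342 and 0.0312). None of these 4 calls was held throughout the leave-one-out fits, and in the fits that lost them the log2 fold changes were 0.90 to 1.59. Slit3 was not called against Il-17ra-Cre without any 1 of Il-17rb-Cre replicate 2 and Il-17ra-Cre replicates 1 and 2 (edgeR adjusted p between 0.0543 and 0.0894) or against Il-17rc-Cre without any 1 of Il-17rb-Cre replicates 2 and 3 and Il-17rc-Cre replicates 1 and 2 (edgeR adjusted p between 0.0534 and 0.116). Slit1 was not called against Il-17ra-Cre without any 1 of Il-17rb-Cre replicates 1, 2 and 3 and Il-17ra-Cre replicate 2 (edgeR adjusted p between 0.0582 and 0.0874) or against Il-17rc-Cre without any 1 of Il-17rb-Cre replicates 1, 2 and 3 and Il-17rc-Cre replicates 1, 3 and 4 (edgeR adjusted p between 0.0624 and 0.106). Slit2 had log2 fold changes of 1.35 ± 0.76 and 0.53 ± 0.69 and was not called (edgeR adjusted p = 0.181 and 0.572).

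Of the 4 netrins, 1 was higher and 2 were lower in the libraries labelled Il-17rb-Cre in each comparison. Ntn5 (chromosome 7, 45684022 to 45694556) was at 18.1, 21.8 and 22.4 CPM in the libraries labelled Il-17rb-Cre, 2.40, 2.26 and 4.97 CPM in those labelled Il-17ra-Cre and 3.60, 4.18, 3.70 and 4.52 CPM in those labelled Il-17rc-Cre. The libraries labelled Il-17rb-Cre lay above all others, and the log2 fold changes were 2.68 ± 0.33 against Il-17ra-Cre and 2.38 ± 0.29 against Il-17rc-Cre (edgeR adjusted p = 1.9e-04 and 1.73e-04). Ntn5 made up 82.9 to 83.9% of the summed netrin RPKM in the libraries labelled Il-17rb-Cre, 20.4 to 34.7% in those labelled Il-17ra-Cre and 19.4 to 30.0% in those labelled Il-17rc-Cre. Its exons overlap other genes over 23.4% of their length, which leaves its level uncertain. Ntn1 (chromosome 11, 68209364 to 68400823), the classical netrin, was at 0.488, 1.07 and 0.872 CPM in the libraries labelled Il-17rb-Cre, 1.91, 2.18 and 6.29 CPM in those labelled Il-17ra-Cre and 5.33, 6.93, 6.99 and 9.64 CPM in those labelled Il-17rc-Cre. It was below 1.1 CPM in each library labelled Il-17rb-Cre and above in all others, with log2 fold changes of -3.15 ± 0.52 against Il-17rc-Cre and -2.10 ± 0.51 against Il-17ra-Cre (edgeR adjusted p = 0.00102 and 0.0088). The value against Il-17ra-Cre was -1.33 without Il-17ra-Cre replicate 3. Ntn4, which binds laminins in basement membranes, was also lower, at -1.32 ± 0.40 and -1.75 ± 0.39 (edgeR adjusted p = 0.0234 and 0.00529), the first not called without any 1 of Il-17rb-Cre replicate 1 and Il-17ra-Cre replicates 1 and 2 (edgeR adjusted p between 0.0502 and 0.0692). Ntn3 was called in neither comparison.

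In the libraries labelled Il-17rb-Cre 0 of the 3 plexin-B genes were higher, 3 were lower than in Il-17ra-Cre and 2 lower than in Il-17rc-Cre, while of the 4 plexin-A genes 2 were higher and 0 lower in each comparison. Plexin-B receptors bind class 4 semaphorins and signal to RhoA. The promoters of these 3 paralogues are shown, and all 3 had log2 fold changes below 0 in both comparisons. The sequences are from RefSeq (GRCm38.p6), 250 bases before to 50 bases after the start, 5′ to 3′ on the gene's strand, with matches of ACAAAG on either strand in capitals.
Plxnb1 (chr9:109095186-109095485, plus strand): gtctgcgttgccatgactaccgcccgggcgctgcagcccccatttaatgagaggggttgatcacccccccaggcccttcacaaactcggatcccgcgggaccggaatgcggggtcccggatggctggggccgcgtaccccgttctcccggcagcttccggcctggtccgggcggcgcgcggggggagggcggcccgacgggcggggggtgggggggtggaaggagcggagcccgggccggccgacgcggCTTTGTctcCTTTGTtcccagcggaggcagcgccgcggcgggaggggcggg
Plxnb2 (chr15:89180739-89181038, minus strand): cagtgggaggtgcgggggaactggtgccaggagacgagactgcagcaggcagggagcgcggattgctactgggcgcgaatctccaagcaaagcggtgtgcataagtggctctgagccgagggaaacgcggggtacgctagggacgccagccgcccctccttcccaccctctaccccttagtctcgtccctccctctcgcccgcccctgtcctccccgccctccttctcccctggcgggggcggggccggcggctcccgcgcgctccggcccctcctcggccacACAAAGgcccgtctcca
Plxnb3 (chrX:73756853-73757152, plus strand): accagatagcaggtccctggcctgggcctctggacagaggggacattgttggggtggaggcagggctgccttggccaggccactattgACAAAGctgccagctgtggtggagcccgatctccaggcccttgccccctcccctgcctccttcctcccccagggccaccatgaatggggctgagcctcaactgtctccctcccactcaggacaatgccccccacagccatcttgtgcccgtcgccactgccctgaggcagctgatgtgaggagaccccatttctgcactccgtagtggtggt
ACAAAG, the core recognised by Sox factors, CAGATG, an E-box, and TATAAA were searched on both strands, and ACAAAG was the one found here, in 18.7% of all 32851 promoters of this length. The window of Plxnb1 holds 2 matches and 36 CG pairs, that of Plxnb2 1 match and 27 CG pairs, and that of Plxnb3 1 match and 4 CG pairs, where the median over all promoters is 7 CG pairs. A second listed start of Plxnb2 holds 0 matches. Windows of members on either side hold the motif too. Among genes called higher in both comparisons, Sema3a has 2 matches and Sema4f has 1. Among genes called lower in both, Sema3d has 2 and Sema6d has 1, besides Plxnb1 and Plxnb2. Sema3c, Efna2 and Efna4, called in neither comparison, also have matches. The matches are given as a description of the letters, and these promoters were picked for display after the matches were known.

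Plxnb1 (chromosome 9, 109095389 to 109119917) was at 1.37, 1.40 and 0.915 CPM in the libraries labelled Il-17rb-Cre, 34.6, 29.7 and 10.2 CPM in those labelled Il-17ra-Cre and 46.3, 27.3, 46.7 and 19.0 CPM in those labelled Il-17rc-Cre. All 7 other libraries lay above 10 CPM and the 3 labelled Il-17rb-Cre under 1.5 CPM. The log2 fold changes were -4.82 ± 0.53 against Il-17rc-Cre and -4.33 ± 0.53 against Il-17ra-Cre (edgeR adjusted p = 9.42e-05 and 2.03e-04). Plxnb2 (chromosome 15, 89155549 to 89180788), the plexin with the highest RPKM in the libraries labelled Il-17rc-Cre, ranked below Plxna1 in those labelled Il-17rb-Cre (0.674 ± 0.282 and 3.07 ± 0.587 RPKM). It was at 2.76, 5.90 and 6.95 CPM in the libraries labelled Il-17rb-Cre, 34.6, 34.6 and 26.9 CPM in those labelled Il-17ra-Cre and 56.5, 63.9, 74.2 and 67.9 CPM in those labelled Il-17rc-Cre. Its 3 groups did not overlap, and it was highest in the libraries labelled Il-17rc-Cre. The log2 fold changes were -3.65 ± 0.31 and -2.62 ± 0.31 against Il-17rc-Cre and Il-17ra-Cre (edgeR adjusted p = 1.9e-05 and 1.52e-04). Plxnb3 (chromosome X, 73757090 to 73772514), known from oligodendrocytes, was at 1.30, 1.25 and 0.529 CPM in the libraries labelled Il-17rb-Cre, 55.9, 39.2 and 6.05 CPM in those labelled Il-17ra-Cre and 1.07, 5.60, 0.387 and 2.24 CPM in those labelled Il-17rc-Cre. It was high in Il-17ra-Cre replicates 1 and 2 alone, and the libraries labelled Il-17rb-Cre and Il-17rc-Cre overlapped. The log2 fold change was -5.04 ± 1.08 against Il-17ra-Cre (edgeR adjusted p = 0.00442), -4.45 without Il-17ra-Cre replicate 1, and -1.19 ± 0.90 against Il-17rc-Cre (edgeR adjusted p = 0.325).

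Plexin-A receptors carry the signals of class 3 and class 6 semaphorins. Plxna4 was at 35.3, 43.8 and 40.4 CPM for Il-17rb-Cre, 11.5, 19.1 and 25.0 CPM for Il-17ra-Cre and 16.3, 26.3, 15.9 and 18.7 CPM for Il-17rc-Cre, without overlap of Il-17rb-Cre with either. It rose by 1.10 ± 0.29 and 1.05 ± 0.27 on the log2 scale (edgeR adjusted p = 0.0128 and 0.0114), and was not called against Il-17rc-Cre without Il-17rb-Cre replicate 2 (edgeR adjusted p = 0.0508). Plxna2 rose by 0.83 ± 0.21 and 0.62 ± 0.19 (edgeR adjusted p = 0.0106 and 0.0287), and was not called against Il-17rc-Cre without any 1 of Il-17rb-Cre replicates 1, 2 and 3 and Il-17rc-Cre replicates 1 and 4 (edgeR adjusted p between 0.0624 and 0.112). Plxna1, Plxna3, Plxnc1 and Plxnd1 were called in neither comparison. Plxna3 had a negative log2 fold change against Il-17ra-Cre, -1.82 ± 0.83 without overlap, and -0.23 ± 0.76 against Il-17rc-Cre (edgeR adjusted p = 0.106 and 0.833). By RPKM the plexin-B genes made up 6.87 to 9.91% of all plexins in the libraries labelled Il-17rb-Cre, 41.8 to 75.4% in those labelled Il-17ra-Cre and 57.7 to 63.0% in those labelled Il-17rc-Cre. The plexin-A genes made up 64.4 to 70.8% for Il-17rb-Cre, 18.1 to 41.9% for Il-17ra-Cre and 22.9 to 27.1% for Il-17rc-Cre.

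Neuropilins lend class 3 semaphorins their binding site, and 1 of the 2 was lower in each comparison. Nrp1 (chromosome 8, 128358604 to 128503363), the Sema3a receptor, was at 13.7, 23.2 and 19.8 CPM in the libraries labelled Il-17rb-Cre, 31.5, 27.1 and 23.0 CPM in those labelled Il-17ra-Cre and 16.1, 18.9, 14.2 and 23.2 CPM in those labelled Il-17rc-Cre. The groups overlapped, and neither log2 fold change passed, -0.52 ± 0.25 against Il-17ra-Cre and 0.06 ± 0.23 against Il-17rc-Cre (edgeR adjusted p = 0.122 and 0.854). Nrp2, the Sema3f receptor, was at 1.80, 1.55 and 2.06 CPM for Il-17rb-Cre, 8.09, 14.8 and 7.41 CPM for Il-17ra-Cre and 4.36, 8.94, 3.82 and 2.24 CPM for Il-17rc-Cre. It was lower without overlap, at -2.49 ± 0.50 and -1.42 ± 0.46 (edgeR adjusted p = 0.00323 and 0.0336), the second not called without any 1 of Il-17rb-Cre replicates 1, 2 and 3 and Il-17rc-Cre replicates 1 and 2 (edgeR adjusted p between 0.0513 and 0.0972).

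Of the 9 EphA receptors, 5 were higher and 1 lower in Il-17rb-Cre than in Il-17ra-Cre, and 3 higher and 1 lower than in Il-17rc-Cre. Epha4 (chromosome 1, 77367185 to 77515088), which takes ephrins of both classes and shapes spines in mice, was at 42.8, 44.3 and 49.6 CPM in the libraries labelled Il-17rb-Cre, 22.3, 31.0 and 30.1 CPM in those labelled Il-17ra-Cre and 19.3, 28.2, 24.0 and 26.2 CPM in those labelled Il-17rc-Cre. Again the libraries labelled Il-17rb-Cre were highest, with log2 fold changes of 0.71 ± 0.19 and 0.90 ± 0.18 (edgeR adjusted p = 0.0136 and 0.00278). Epha10 (chromosome 4, 124880899 to 124917800), which lacks kinase activity, was at 9.57, 19.8 and 16.5 CPM in the libraries labelled Il-17rb-Cre, 2.59, 5.23 and 3.93 CPM in those labelled Il-17ra-Cre and 5.19, 5.45, 5.39 and 2.01 CPM in those labelled Il-17rc-Cre. Its log2 fold changes were 1.97 ± 0.45 against Il-17ra-Cre and 1.76 ± 0.40 against Il-17rc-Cre (edgeR adjusted p = 0.00583 and 0.00628), again without overlap. Epha8 (chromosome 4, 136929419 to 136956816) was at 1.52, 1.39 and 4.93 CPM in the libraries labelled Il-17rb-Cre, 0.0809, 0.504 and 0.632 CPM in those labelled Il-17ra-Cre and 2.74, 1.77, 3.76 and 2.46 CPM in those labelled Il-17rc-Cre. The libraries labelled Il-17ra-Cre lay below both other groups, which overlapped. The log2 fold change was 2.65 ± 0.74 against Il-17ra-Cre and -0.04 ± 0.65 against Il-17rc-Cre (edgeR adjusted p = 0.0168 and 0.97). Without Il-17rb-Cre replicate 3, the highest library, the first was 1.81 and not called (edgeR adjusted p = 0.0757).

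Epha5 and Epha7, receptors of ephrin-A in the cortex, were higher as well. Epha5 was at 29.5, 41.3 and 32.7 CPM for Il-17rb-Cre, 10.1, 13.4 and 22.0 CPM for Il-17ra-Cre and 15.5, 20.8, 15.1 and 15.4 CPM for Il-17rc-Cre, and rose by 1.18 ± 0.28 and 1.05 ± 0.26 on the log2 scale (edgeR adjusted p = 0.00804 and 0.00988), the second not called without Il-17rb-Cre replicate 2 (edgeR adjusted p = 0.0573). Epha7 rose by 1.41 ± 0.40 against Il-17ra-Cre (edgeR adjusted p = 0.0181), not called without any 1 of Il-17rb-Cre replicate 2 and Il-17ra-Cre replicate 2 (edgeR adjusted p between 0.0586 and 0.0664) and 2.07 without Il-17ra-Cre replicate 3, and was at 1.00 ± 0.37 against Il-17rc-Cre (edgeR adjusted p = 0.053). Epha2, the EphA receptor of epithelia, had 1 read over the 3 libraries labelled Il-17rb-Cre, against 300 reads for Il-17ra-Cre and 642 for Il-17rc-Cre. Replicate 3 held that 1 read, and 252 of the 300 for Il-17ra-Cre came from replicate 3 of that group, with 13 and 35 in replicates 1 and 2. Il-17ra-Cre replicate 3 was the deepest library at 165844244 counts. In CPM, Epha2 was at 0.350, 0.929 and 1.48 in Il-17ra-Cre replicates 1 to 3. Scaled by depth, it was 242 times as high in Il-17ra-Cre (exact Poisson 95% interval 43.1 to 9593, for counting error only) and 477 times as high in Il-17rc-Cre (85.4 to 18889) as in Il-17rb-Cre. It was called lower in both comparisons (edgeR adjusted p = 3.91e-04 against Il-17ra-Cre and 1.34e-04 against Il-17rc-Cre). The fitted log2 fold changes of -7.10 ± 0.98 and -8.43 ± 0.99 are no bound, and without Il-17rb-Cre replicate 3 they were -9.02 and -10.41, while without Il-17ra-Cre replicate 3 the first was -6.50. Epha1, Epha3 and Epha6 were called in neither comparison.

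EphB receptors diverged. Ephb6 (chromosome 6, 41605482 to 41620509), whose kinase is inactive, was at 113, 203 and 136 CPM in the libraries labelled Il-17rb-Cre, 22.0, 42.4 and 52.5 CPM in those labelled Il-17ra-Cre and 53.3, 49.6, 49.5 and 35.1 CPM in those labelled Il-17rc-Cre. The libraries labelled Il-17rb-Cre lay above all others, with log2 fold changes of 1.95 ± 0.33 against Il-17ra-Cre and 1.68 ± 0.30 against Il-17rc-Cre (edgeR adjusted p = 0.00127 and 0.0016). It made up 82.4 to 85.0% of the summed EphB RPKM in the libraries labelled Il-17rb-Cre, 33.7 to 70.3% in those labelled Il-17ra-Cre and 53.2 to 57.5% in those labelled Il-17rc-Cre. Ephb4 (chromosome 5, 137350109 to 137378669), the receptor of veins for Efnb2, was at 0, 0 and 0.157 CPM in the libraries labelled Il-17rb-Cre, 4.18, 5.04 and 1.04 CPM in those labelled Il-17ra-Cre and 6.42, 8.34, 7.27 and 5.23 CPM in those labelled Il-17rc-Cre. All 11 of its reads for Il-17rb-Cre came from replicate 3, so the fitted values of -5.93 ± 1.12 against Il-17ra-Cre and -6.93 ± 1.15 against Il-17rc-Cre rest on that library, and without it no read is left in the group (edgeR adjusted p = 0.00229 and 0.00104, and 7.36e-04 and 3.97e-04 without it). Without Il-17rb-Cre replicate 2 the value against Il-17ra-Cre was -5.32. Ephb3 was higher against Il-17ra-Cre at 1.74 ± 0.37 (edgeR adjusted p = 0.00438) and at 0.43 ± 0.34 against Il-17rc-Cre (edgeR adjusted p = 0.332). Ephb1 was lower against Il-17ra-Cre at -0.95 ± 0.34 (edgeR adjusted p = 0.0473) although the groups overlapped, and not called without any 1 of Il-17rb-Cre replicates 1, 2 and 3, Il-17ra-Cre replicates 1 and 2 and Il-17rc-Cre replicates 1 and 2 (edgeR adjusted p between 0.0556 and 0.2). Ephb2 was called in neither comparison. The endothelial markers, 10 genes, summed to 11.7 to 19.0 CPM in the libraries labelled Il-17rb-Cre, 61.1 to 395 CPM in those labelled Il-17ra-Cre and 79.1 to 255 CPM in those labelled Il-17rc-Cre. In Il-17rb-Cre replicate 1 Cdh5, Flt1, Tek and Slco1a4 were at 0, while all 10 were detected in replicates 2 and 3. Tek and Slco1a4 were also at 0 in Il-17ra-Cre replicate 3. Of the 10, 3 were called lower in Il-17rb-Cre than in Il-17ra-Cre and 7 lower than in Il-17rc-Cre, beside 24.4% and 21.9% of all genes. The part of endothelial cells in the values of Ephb4 and Epha2 was not tested.

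Robo receptors answer Slits. Robo3 (chromosome 9, 37415669 to 37433246), which lets commissural axons cross the midline, was at 16.4, 14.7 and 21.7 CPM in the libraries labelled Il-17rb-Cre, 1.97, 12.1 and 5.86 CPM in those labelled Il-17ra-Cre and 4.71, 3.32, 7.63 and 5.71 CPM in those labelled Il-17rc-Cre. Il-17ra-Cre replicate 2 stood above its group, and the libraries labelled Il-17rb-Cre lay above all others. The log2 fold change was 1.72 ± 0.50 against Il-17rc-Cre (edgeR adjusted p = 0.0209) and 1.41 ± 0.55 against Il-17ra-Cre (edgeR adjusted p = 0.0641). The call was lost without any 1 of Il-17rb-Cre replicates 1 and 3 and Il-17rc-Cre replicates 1 and 2 (edgeR adjusted p between 0.0515 and 0.0821). Robo2 rose by 1.34 ± 0.27 against Il-17ra-Cre and 0.69 ± 0.25 against Il-17rc-Cre (edgeR adjusted p = 0.00335 and 0.0482), and the second was not called without any 1 of Il-17rb-Cre replicates 1, 2 and 3, Il-17ra-Cre replicate 2 and Il-17rc-Cre replicates 1, 3 and 4 (edgeR adjusted p between 0.0795 and 0.181). Robo1 and the endothelial Robo4 were called in neither comparison.

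The receptors of netrin split within Unc5, whose promoters are shown for the pair that moved in opposite directions. These windows of RefSeq (GRCm38.p6) hold none of the 3 motifs, so no letters are in capitals.
Unc5a (chr13:54949161-54949460, plus strand): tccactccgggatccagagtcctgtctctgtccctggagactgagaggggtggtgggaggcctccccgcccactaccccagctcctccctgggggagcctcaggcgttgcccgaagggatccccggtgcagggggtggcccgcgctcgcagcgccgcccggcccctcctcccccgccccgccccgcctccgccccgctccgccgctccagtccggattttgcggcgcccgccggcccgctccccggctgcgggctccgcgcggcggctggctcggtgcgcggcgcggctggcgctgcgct
Unc5b (chr10:60831532-60831831, minus strand): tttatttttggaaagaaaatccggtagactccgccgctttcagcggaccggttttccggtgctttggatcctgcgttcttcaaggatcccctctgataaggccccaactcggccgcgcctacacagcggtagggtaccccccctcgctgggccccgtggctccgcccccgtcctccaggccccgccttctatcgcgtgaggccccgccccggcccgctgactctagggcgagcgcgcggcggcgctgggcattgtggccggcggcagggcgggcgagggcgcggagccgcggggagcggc
Both windows are rich in CG pairs, 37 in Unc5a and 36 in Unc5b. Unc5a (chromosome 13, 54949411 to 55006018) was at 81.5, 123 and 108 CPM in the libraries labelled Il-17rb-Cre, 8.28, 26.0 and 38.3 CPM in those labelled Il-17ra-Cre and 29.3, 37.7, 32.9 and 28.6 CPM in those labelled Il-17rc-Cre. The libraries labelled Il-17rb-Cre lay above all others, with log2 fold changes of 2.10 ± 0.44 against Il-17ra-Cre and 1.70 ± 0.39 against Il-17rc-Cre (edgeR adjusted p = 0.00384 and 0.00697). Unc5b (chromosome 10, 60762593 to 60831581), which vessels also use to read netrin and Robo4, was at 0.469, 1.49 and 0.686 CPM in the libraries labelled Il-17rb-Cre, 26.8, 19.3 and 6.26 CPM in those labelled Il-17ra-Cre and 2.55, 4.59, 2.52 and 2.24 CPM in those labelled Il-17rc-Cre. The 3 groups did not overlap, with Il-17rb-Cre lowest and Il-17ra-Cre highest. The log2 fold changes were -4.29 ± 0.64 and -1.74 ± 0.56 (edgeR adjusted p = 0.000612 and 0.0313), and -4.91 and -2.41 without Il-17rb-Cre replicate 2. The call against Il-17rc-Cre was lost without any 1 of Il-17rb-Cre replicates 1 and 3 and Il-17rc-Cre replicate 2 (edgeR adjusted p between 0.0724 and 0.103). Unc5d (chromosome 8, 28646717 to 29219636), a marker of layer 4 and a receptor of Flrt proteins, was at 17.5, 14.9 and 13.8 CPM in the libraries labelled Il-17rb-Cre, 2.32, 3.66 and 6.59 CPM in those labelled Il-17ra-Cre and 4.14, 5.38, 3.87 and 3.78 CPM in those labelled Il-17rc-Cre. It rose by 1.87 ± 0.36 and 1.84 ± 0.33 on the log2 scale (edgeR adjusted p = 0.00258 and 0.00162), without overlap. By RPKM, Unc5a made up 88.7 to 92.8% of the 4 Unc5 genes in the libraries labelled Il-17rb-Cre, 25.9 to 79.9% in those labelled Il-17ra-Cre and 81.7 to 88.0% in those labelled Il-17rc-Cre. Dcc, the attractive netrin receptor, and Unc5c were called in neither comparison, Dcc at 0.676, 1.23 and 2.22 CPM for Il-17rb-Cre, 1.16, 1.46 and 3.07 CPM for Il-17ra-Cre and 2.26, 3.24, 2.66 and 1.06 CPM for Il-17rc-Cre.

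**Figure D2:**
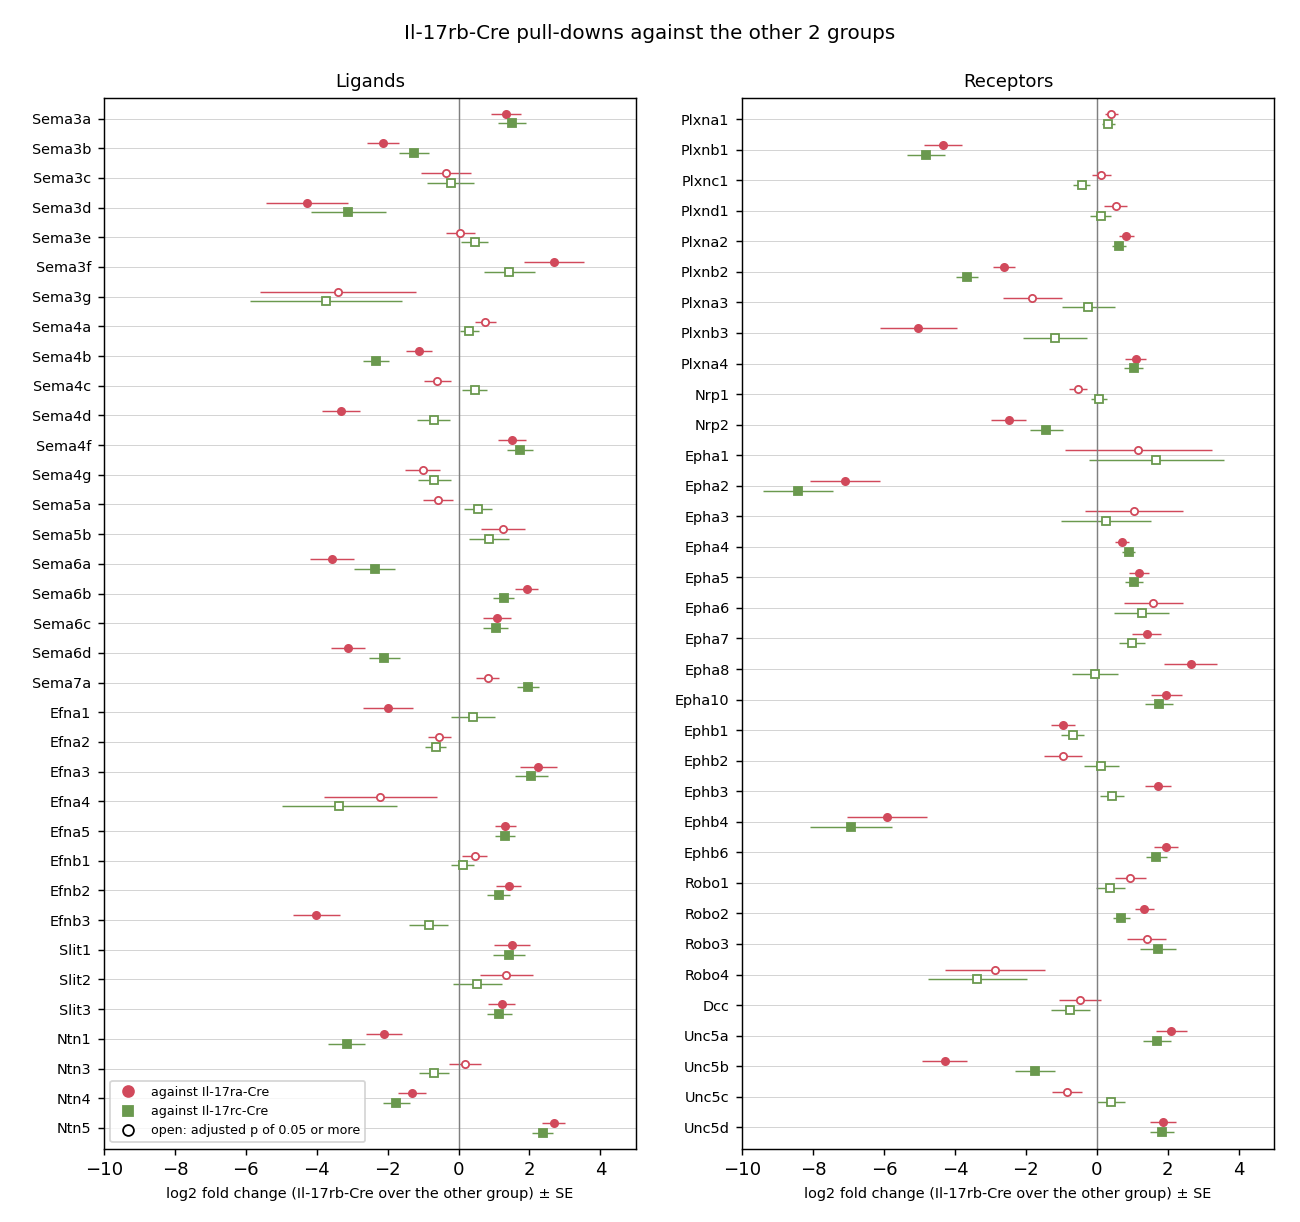
Log2 fold change ± SE of each ligand (left) and receptor (right) in the libraries labelled Il-17rb-Cre over Il-17ra-Cre (circles) and over Il-17rc-Cre (squares), filled where the edgeR adjusted p is under 0.05. Plxnb1, Plxnb2 and Ephb4 lie far below 0 in both comparisons, which share the Il-17rb-Cre libraries, and Sema4d, Efnb3 and Plxnb3 are filled only against Il-17ra-Cre.

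**Figure D3:**
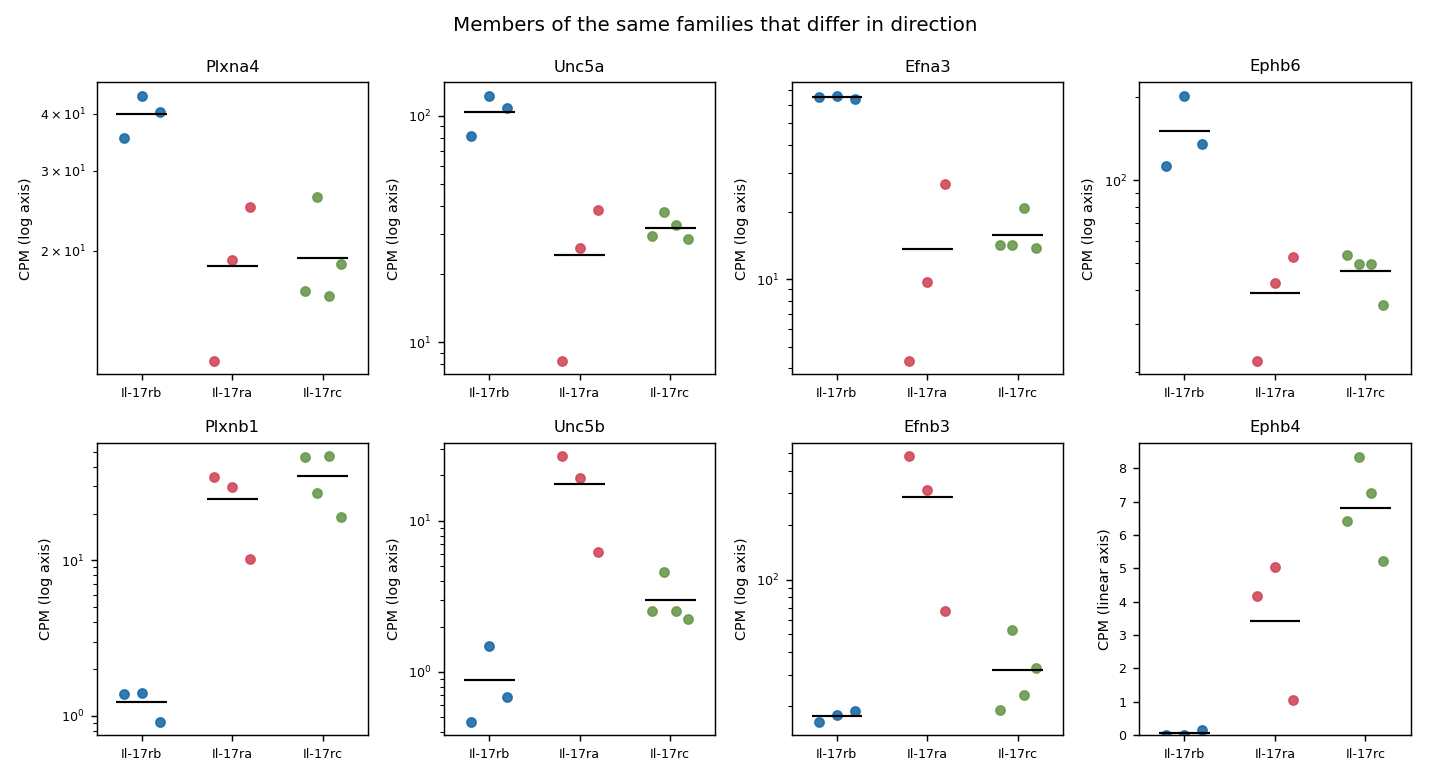
CPM in each library (points) with group means (lines) for 4 genes that were higher in the libraries labelled Il-17rb-Cre (upper row) and 4 of related families that were lower (lower row), on log axes except Ephb4, whose axis is linear from 0. Efnb3 was called lower against Il-17ra-Cre but not against Il-17rc-Cre. Unc5a and Unc5b move in opposite directions, as do Plxna4 and Plxnb1, and the Il-17ra-Cre points are the most spread.

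**Figure D4:**
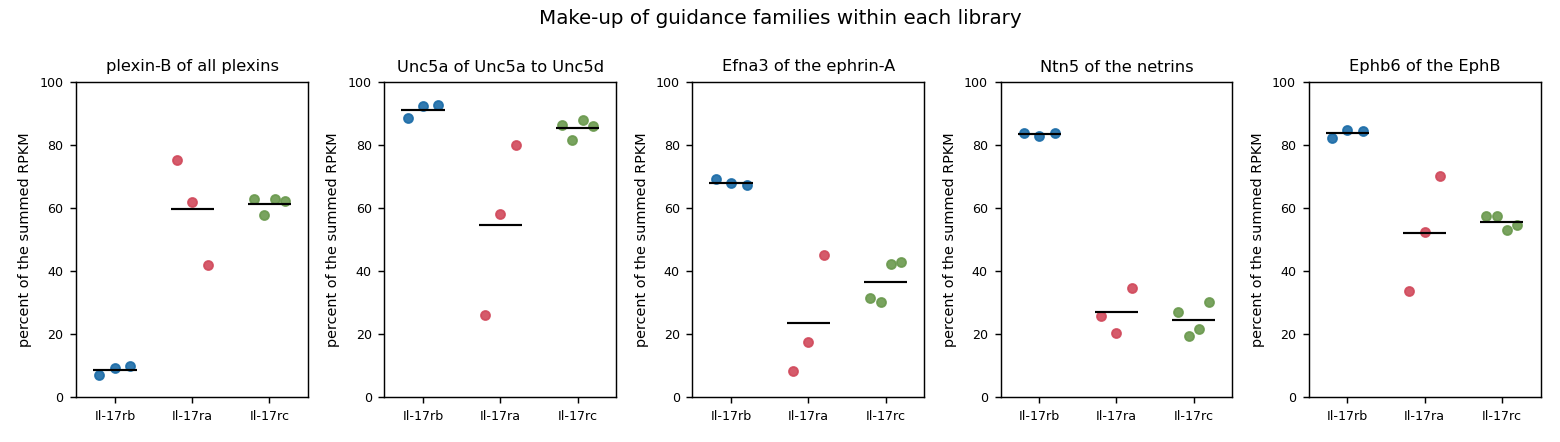
Share of a family's summed RPKM taken by plexin-B, Unc5a, Efna3, Ntn5 or Ephb6 in each library (points), with group means (lines). In the libraries labelled Il-17rb-Cre plexin-B is under 10% of plexins and Ntn5 over 80% of netrins, and the Il-17ra-Cre points spread widely for Unc5a and Efna3.

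The summed ligand RPKM was 1.17 to 1.45 times the summed receptor RPKM in the libraries labelled Il-17rb-Cre, 4.41, 2.99 and 1.80 times in Il-17ra-Cre replicates 1 to 3, and 1.18 to 1.41 times in the libraries labelled Il-17rc-Cre. Receptors summed to 85.9 to 129 RPKM for Il-17rb-Cre, 56.7 to 68.2 RPKM for Il-17ra-Cre and 55.5 to 68.9 RPKM for Il-17rc-Cre. Ligands summed to 124 to 152 RPKM for Il-17rb-Cre, 104 to 250 RPKM for Il-17ra-Cre and 69.6 to 96.3 RPKM for Il-17rc-Cre. The ligand sum in Il-17ra-Cre replicates 1 and 2 was led by Efnb3, whose share of ephrin-B RPKM was 46.5 to 51.5% for Il-17rb-Cre, 79.0 to 98.7% for Il-17ra-Cre and 58.8 to 81.0% for Il-17rc-Cre.

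Libraries labelled Il-17ra-Cre and Il-17rc-Cre differed in few guidance genes. The 3 genes called were Efnb3 at 3.17 ± 0.56, Sema4d at 2.61 ± 0.48 and Unc5b at 2.55 ± 0.53, all higher in Il-17ra-Cre (edgeR adjusted p = 0.0375, 0.0384 and 0.0451). Plxnb3, at 3.85 ± 0.91, missed the test (edgeR adjusted p = 0.0576). edgeR called 0 members lower, while DESeq2 called 4 and voom 4, beside 5.70% and 9.18% of all genes by those tools. At an unadjusted p under 0.05, 13 were higher and 7 lower, beside 10.8% and 7.59% of all genes. Without Il-17ra-Cre replicate 3, 8 were called higher and 8 lower, beside 7.31% and 6.38% of all genes. The median log2 fold change of the 69 was -0.13, beside 0.03 over all genes tested. None of the 3 calls was held throughout the leave-one-out fits: Efnb3, Sema4d and Unc5b were each lost without any 1 of 8 libraries, all but Il-17ra-Cre replicate 3 and Il-17rc-Cre replicate 2 (edgeR adjusted p between 0.0605 and 0.173). In those 8 fits, 0 to 0.0614% of all genes were called higher and 0 to 0.142% lower. Efnb3 was at 2.52 without Il-17ra-Cre replicate 1. With replicates 1 and 2 of that group both left out, their log2 fold changes were 1.00, 0.72 and 1.00. Groups without overlap were found for 6 genes higher and 6 lower in Il-17ra-Cre, beside 7.92% and 6.65% of all genes tested.

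Efnb3, Sema4d and Unc5b were uneven over the libraries labelled Il-17ra-Cre in the way the oligodendrocyte markers were. All 11 oligodendrocyte markers were detected in every library, and they summed to 1190, 1029 and 1138 CPM in Il-17rb-Cre replicates 1 to 3, 45640, 31182 and 5432 CPM in Il-17ra-Cre replicates 1 to 3, and 1253, 4031, 1059 and 2480 CPM in Il-17rc-Cre replicates 1 to 4. In the libraries labelled Il-17rb-Cre 11 of the 11 were lower than in Il-17ra-Cre and 1 was lower than in Il-17rc-Cre, and in Il-17ra-Cre 10 were higher than in Il-17rc-Cre. Those 10 calls were lost without any 1 of the same 8 libraries, where edgeR called 0 of the 11. Those fits called 0 to 0.0614% of all genes higher and 0 to 0.142% lower. The loss is therefore not particular to these genes. Il-17rc-Cre replicate 2, the highest of its group for these markers, was also its highest for Efnb3, Sema4d, Sema6a, Sema6d, Plxnb3 and Unc5b. With Il-17ra-Cre replicates 1 and 2 both left out, the log2 fold change of Il-17rb-Cre against Il-17ra-Cre was -2.18 for Sema6a, -1.33 for Sema6d, -2.55 for Plxnb3 and -2.80 for Unc5b. Sema6a and Plxnb3 were then not called (edgeR adjusted p = 0.0502 and 0.148), while Sema6d and Unc5b still were (edgeR adjusted p = 0.00279 and 0.0172). The part of oligodendrocytes in the levels of these 6 genes was not tested. The 12 microglia and macrophage markers also stood apart, at 21.9 to 27.0 CPM for Il-17rb-Cre with Itgam and Mrc1 at 0 in each library, 708 to 1234 CPM for Il-17ra-Cre and 42.7 to 212 CPM for Il-17rc-Cre. Mrc1 was also at 0 in Il-17ra-Cre replicate 3, and Itgam in Il-17rc-Cre replicate 3. The 8 markers of oligodendrocyte precursors summed to 55.9 to 80.9 CPM for Il-17rb-Cre, 732 to 2225 CPM for Il-17ra-Cre and 630 to 802 CPM for Il-17rc-Cre. By contrast Plxnb1, Plxnb2, Ephb4 and Ntn1 were higher on average in the libraries labelled Il-17rc-Cre than in those labelled Il-17ra-Cre, as the astrocyte marker sums were, with 0 of these 4 differences called by edgeR. The mural and fibroblast-like markers summed to 4.32 to 10.7 CPM for Il-17rb-Cre, 136 to 206 CPM for Il-17ra-Cre and 504 to 1078 CPM for Il-17rc-Cre. Whether astrocytes or mural cells bear on those 4 genes was not tested.

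**Figure D5:**
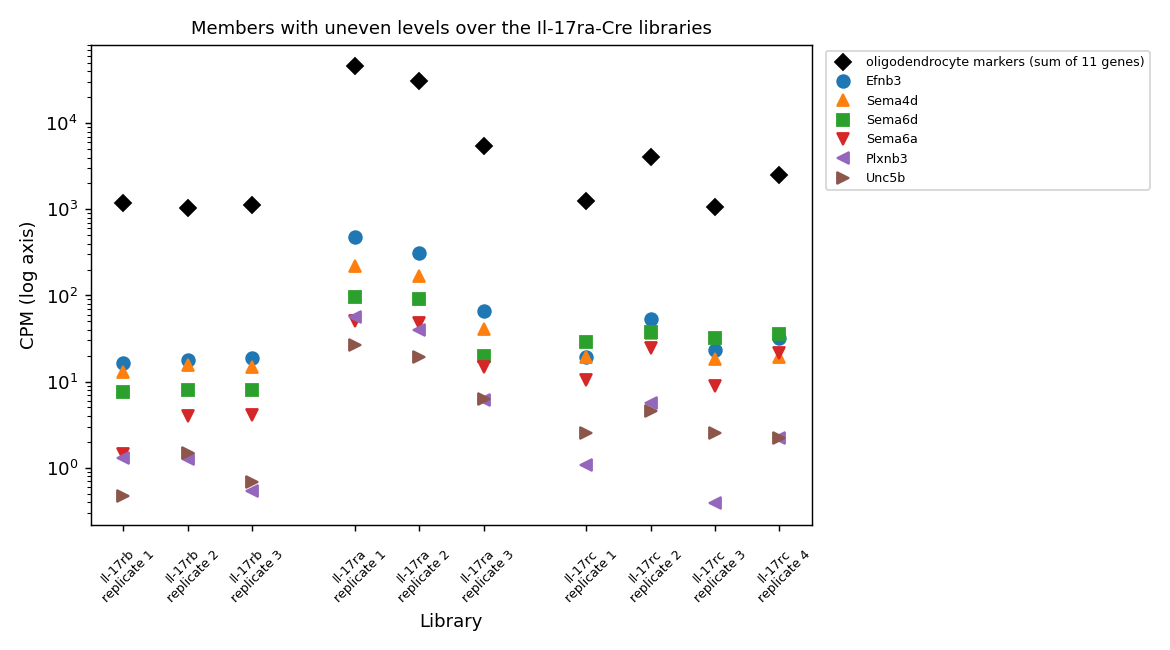
CPM of 6 guidance genes and the summed CPM of 11 oligodendrocyte markers (diamonds) in each library, on a log axis, with groups from left to right Il-17rb-Cre, Il-17ra-Cre and Il-17rc-Cre. Il-17ra-Cre replicates 1 and 2 are highest for all 7 values, and replicate 3 of that group lies between them and the other groups for Efnb3 and the markers.

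Genes that work beside the members were followed in 2 lists. Of 27 other guidance cues and co-receptors, 15 were higher and 4 lower in the libraries labelled Il-17rb-Cre than in those labelled Il-17ra-Cre, and 13 higher and 4 lower than in those labelled Il-17rc-Cre. Calls in either direction took 70.4% and 63.0% of the list, beside 40.7% and 39.7% of all genes tested. The shares of all genes were 16.4% higher and 24.4% lower against Il-17ra-Cre, and 17.7% and 21.9% against Il-17rc-Cre. Against Il-17ra-Cre the median was 0.82, beside -0.09 over all genes, and against Il-17rc-Cre 1.08, beside 0.02. Receptors and partners that read myelin-borne Nogo-A as a stop signal were among the higher ones: the Nogo receptor gene Rtn4r averaged 123 CPM for Il-17rb-Cre, 21.3 CPM for Il-17ra-Cre and 26.8 CPM for Il-17rc-Cre, log2 fold changes of 2.52 ± 0.45 and 2.20 ± 0.40 (edgeR adjusted p = 0.00166 and 0.00187). Its co-receptor Lingo1, which the excitatory neuron markers also contain, was at 2.01 ± 0.32 and 1.93 ± 0.29 (edgeR adjusted p = 9.52e-04 and 6.3e-04). Rtn4rl2, also among the higher ones, is shared with those markers too, so this list and the markers are not separate. Lrrc4c, a netrin-G ligand at synapses, was at 1.58 ± 0.32 and 1.21 ± 0.29 (edgeR adjusted p = 0.00333 and 0.00838). Among the lower ones Rgma, a repulsive ligand of neogenin, was at -1.32 ± 0.27 and -1.60 ± 0.26 (edgeR adjusted p = 0.00358 and 9.72e-04). Rtn4r, Lingo1, Lrrc4c and Rgma were called in both comparisons with each library left out in turn.

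Of the 48 intracellular effectors, 15 were higher and 13 lower against Il-17ra-Cre, and 17 higher and 11 lower against Il-17rc-Cre. Over all genes tested 16.4% were higher and 24.4% lower in the first comparison, and 17.7% and 21.9% in the second. The lower counts were thus near the share of all genes. Medians were 0.01 and 0.06, beside -0.09 and 0.02 over all genes. Without Il-17rb-Cre replicate 1 the 17 fell to 8, where the share of all genes called higher was 11.6%. Relatives parted here too. Pak1 and Pak3, kinases downstream of Rac and Cdc42, rose by 1.23 ± 0.16 and 1.21 ± 0.21 against Il-17ra-Cre (edgeR adjusted p = 2.57e-04 and 0.00133) and by 1.64 ± 0.14 and 1.30 ± 0.19 against Il-17rc-Cre (edgeR adjusted p = 2.39e-05 and 5.06e-04), whereas Pak2 was at -1.91 ± 0.22 and -1.38 ± 0.20 (edgeR adjusted p = 1.25e-04 and 5.17e-04). Mical2, an oxidase of actin, averaged 533 CPM in Il-17rb-Cre, 127 CPM in Il-17ra-Cre and 148 CPM in Il-17rc-Cre, while Mical1 averaged 4.10 CPM for Il-17rb-Cre, 14.6 CPM for Il-17ra-Cre and 23.6 CPM for Il-17rc-Cre. Rhoa, the small GTPase that plexin-B receptors act on, was at -1.59 ± 0.18 and -1.24 ± 0.17 (edgeR adjusted p = 1.25e-04 and 3.33e-04). Dock1, an activator of Rac downstream of Dcc, fell by 5.03 ± 0.53 and 4.54 ± 0.51 (edgeR adjusted p = 8.15e-05 and 9.65e-05). These genes were called in both comparisons with each library left out in turn. In Il-17ra-Cre against Il-17rc-Cre, 1 of the 27 cues and 2 of the 48 effectors were higher and 0 lower by edgeR. The shares of all genes were 1.38% and 0.798%. Those 3 calls were lost without Il-17ra-Cre replicate 1, where 0% of all genes were called.

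Promoters were at hand for 59 of the 69 genes, as 75 windows of 300 bases. Their median GC content was 64.3%, against 52.7% over all 32851 promoters, with 19 CG pairs against 7. Genes called higher in both comparisons had a median of 64.3% GC and 22 CG pairs (21 windows of 16 genes). Genes called lower in both had 65.3% GC and 26 CG pairs (13 windows of 10 genes), so the sets were close to each other in base make-up.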

How the data were processed

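The deposited table holds raw counts per gene and library, and per the submitters' processing notes reads were aligned with STAR 2.7.5c to GRCm38. The counting tool, strand setting and annotation release are stated neither in the labels nor in the processing notes. Per the labels' protocols, libraries were made with the SMART-Seq v4 kit, which does not mark strand, so reads on overlapping genes cannot be told apart. No molecular identifiers are stated, and intervals cover counting error only.

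All 55536 identifiers were matched to GENCODE M21 (GRCm38), which gave symbols, positions and exonic lengths. The filter of edgeR, with the IL-17 receptor genes kept, removed 35235 genes and left 20301. After TMM scaling, genes were tested with the quasi-likelihood F test of edgeR 4.0.16 (R 4.3.3), with 10 libraries in 1 model, no replicate block and Benjamini-Hochberg adjustment at 0.05 over all genes tested. Errors are standard deviations beside means and standard errors beside log2 fold changes. Depth of 39692925 to 165844244 counts bounds the precision of genes under about 1 CPM. RPKM is CPM per kilobase of exon, computed here. The test was tried on simulated counts.

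Values per library are given for up to 3 called ligands and 3 called receptors per comparison and direction with the largest fold, no overlap and a mean log2 CPM from 1 upward, for the member of each family with the highest RPKM, and for others chosen after their values were seen. The members, gene lists, alternatives and named genes were chosen with earlier results of these data known. Alternatives were DESeq2 1.42.0, voom in limma 3.58.1, other scalings and filters, 2 groups alone, replicate blocks, and libraries left out.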

Additional observations from a re-analysis of the deposited data

Results flagged for a closer look

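In 6 of the 69 genes the highest or lowest of the 4 libraries labelled Il-17rc-Cre stood apart from the others by Dixon's test. Chance flags about 1 in 20 such groups. Il-17rc-Cre replicate 2 was the highest of its group for Sema4d at 36.6 CPM, for Efna1 at 7.19 CPM, for Epha5 at 20.8 CPM and for Unc5b at 4.59 CPM. Il-17rc-Cre replicate 3 was the highest for Efna3 at 20.8 CPM, and Il-17rc-Cre replicate 4 was lowest for Epha10 at 2.01 CPM. The groups of 3 libraries were not put to the test, so flags could fall in Il-17rc-Cre alone.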

How the results depend on the processing

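The counts of members against Il-17ra-Cre were 21 to 27 higher and 15 to 23 lower under DESeq2, voom, other scalings, other filters and the model of 2 groups, beside 23 and 18. Those settings called 9.68 to 25.0% of all genes higher and 15.3 to 31.2% lower, beside 16.4% and 24.4%. With 1 library left out, 11.7 to 20.9% of all genes were higher and 19.0 to 26.1% lower. The member counts were then 17 to 23 higher and 13 to 19 lower. Without Il-17ra-Cre replicates 1 and 2 they were 7 and 9, with 1 Il-17ra-Cre library left, which is assumed to vary like the others. Against Il-17rc-Cre they were 18 to 25 higher and 13 to 19 lower under the same settings, beside 21 and 13. The 21 higher became 12 to 23 with 1 library left out and 12 without Il-17rc-Cre replicates 1 and 3, and the 13 lower became 9 to 14. For Il-17ra-Cre against Il-17rc-Cre, the 3 higher became 7 with DESeq2, 16 with voom and 0 in the model of the 2 groups alone. They became 0 to 8 with 1 library left out and 0 without Il-17rc-Cre replicates 1 and 3. Of all genes 1.38% were higher in the main fit, 5.04% with DESeq2, 13.4% with voom and 0% with the 2 groups alone. With 1 library left out the share was 0 to 7.31%. The 0 lower became 4 with DESeq2, 4 with voom and 0 to 8 with 1 library left out, the 8 without Il-17ra-Cre replicate 3. Shares of all genes lower were 0.798% in the main fit, 5.70% with DESeq2, 9.18% with voom and 0 to 6.38% with 1 library left out. No called member changed sign under any alternative run.

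Replicate numbers did not pair the libraries, with correlations of deviations between -0.083 and 0.181. With the replicate block the counts were 23 higher and 18 lower against Il-17ra-Cre, beside 15.6% and 22.0% of all genes. Against Il-17rc-Cre they were 16 and 12, beside 13.1% and 18.3%. For Il-17ra-Cre against Il-17rc-Cre 0 were higher, beside 0% of all genes. Both were also 0 with the block by the number in the library name. Upper quartile scaling moved the median of all genes from -0.09 to 0.04 against Il-17ra-Cre and from 0.02 to 0.13 against Il-17rc-Cre. With the size factors of DESeq2 in edgeR the split of all genes for Il-17ra-Cre against Il-17rc-Cre moved from 281 higher and 162 lower to 216 and 226. Cause was not tested in any case. Depth limits Epha2, Ephb4, Sema3d and Sema3f, which had 2 reads or fewer in some libraries. It also limits Sema3g, Efna4, Epha1, Epha3 and Robo4, which had 0 reads in some libraries and were called in neither comparison.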
